A study of Mus musculus with 12 samples.

Results

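The 4 mouse receptors for the Fc part of immunoglobulin G (IgG), Fcgr1, Fcgr3, Fcgr4 and Fcgr2b, and the signalling chain Fcer1g were followed in retina. The members are the rows of both deposited expression tables whose gene symbol is one of these names, 5 of 25124 genes in each table. The study asked how mouse retina responds to raised intraocular pressure (IOP) in young and old animals and after repeated elevations. Bulk retina of C57BL/6J wild-type (WT) mice was sequenced as polyA RNA in 12 libraries, 6 groups of 2. In the single-IOP series, 1 eye of each mouse was held at 30 mmHg for 1 h and retinas were collected on day 2, from 3-month-old animals (3mo IOP) and 18-month-old animals (18mo IOP), with the untreated other eye as 3mo control and 18mo control. In the recurring series, mice aged 3 months when first treated received 4 such elevations, 1 every 2 weeks, and retinas were taken 2 days after the last (4xIOP, and 4xIOP control for the untreated eye). Because control eyes were not cannulated, needle entry and pressure cannot be told apart. Because whole retina was used, more cells of a type and more RNA per cell cannot be told apart either.

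Fc gamma receptors bind IgG, mostly when it coats a target, and let phagocytes take up and respond to that target. FcγRI (Fcgr1, of high affinity), FcγRIII (Fcgr3) and FcγRIV (Fcgr4) are activating receptors that need the common gamma chain, the product of Fcer1g, both to reach the surface and to signal through its tyrosine activation motif (ITAM). FcγRIIB (Fcgr2b) carries an inhibitory motif (ITIM) of its own, does not use the gamma chain, and counteracts the activating receptors. In the retina these genes are known mainly from microglia, and elsewhere from macrophages, monocytes and neutrophils.

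Fcgr2b (NM_010187, chromosome 1, 170960559 to 170976071, minus strand), Fcgr4 (NM_144559, chromosome 1, 171018926 to 171029761, plus strand), Fcgr3 (NM_001356511, chromosome 1, 171051169 to 171059394, minus strand) and Fcer1g (NM_010185, chromosome 1, 171229572 to 171234349, minus strand) lay within 273.791 kb of mm10. Fcgr1 (NM_010186, chromosome 3, 96282909 to 96293969, minus strand) lay apart. Counted exons summed to between 651 bases for Fcer1g and 2581 bases for Fcgr1. A non-coding gene, Gm26110, overlapped Fcgr4 on the same strand, and Gm38204 overlapped Fcgr2b on the opposite strand. The coding regions of Fcgr2b and Fcgr3 are similar in sequence. Of the 100-base windows of their GENCODE transcripts, 44 were identical, which is 3.23% of Fcgr2b and 3.59% of Fcgr3. With windows of 50 bases the shares were 11.7% and 13.02%, so reads from these stretches could be dropped or assigned to either gene. No window was shared with Fcgr1, Fcgr4 or Fcer1g.

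Because the members moved together in the comparisons below, the 250 bases before their starts were read (RefSeq, GRCm38.p6, all 5 matched) for the core of the PU.1 site (GAGGAA), a factor of the myeloid lineage, for the interferon-gamma activated element GAS (TTCNNNGAA), for the interferon response element (GAAA repeated after 2 other bases) and for the AP-1 site (TGANTCA), on both strands. The 3 promoters with a match are shown 5′ to 3′ along the gene, with the matches in capitals. They show how close to the start the PU.1 letters lie in each of the 3 activating receptors, as TTCCTC, the reverse complement.

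Fcgr1, chr3:96293970-96294219: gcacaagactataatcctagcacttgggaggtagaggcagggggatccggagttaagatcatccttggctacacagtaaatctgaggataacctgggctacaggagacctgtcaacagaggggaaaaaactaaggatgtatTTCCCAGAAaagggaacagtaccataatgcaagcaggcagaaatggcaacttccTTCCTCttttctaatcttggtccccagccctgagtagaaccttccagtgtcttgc
Fcgr3, chr1:171059395-171059644: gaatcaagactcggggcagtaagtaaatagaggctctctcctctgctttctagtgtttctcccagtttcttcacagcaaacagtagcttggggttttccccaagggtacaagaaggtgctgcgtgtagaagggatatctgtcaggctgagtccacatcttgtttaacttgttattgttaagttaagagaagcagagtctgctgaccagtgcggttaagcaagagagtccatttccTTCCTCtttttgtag
Fcgr4, chr1:171018676-171018925: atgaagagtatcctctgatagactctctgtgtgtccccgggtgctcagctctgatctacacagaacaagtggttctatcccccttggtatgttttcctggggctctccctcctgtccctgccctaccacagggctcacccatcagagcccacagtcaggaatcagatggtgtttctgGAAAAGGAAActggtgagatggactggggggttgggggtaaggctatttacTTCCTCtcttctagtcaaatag

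The PU.1 core matched on the reverse strand at -55 to -50 in Fcgr1, -15 to -10 in Fcgr3 and -22 to -17 in Fcgr4, counted from the base before the start as -1. It occurred in 23.3% of 32851 promoters of the same length. The GAS element was found in Fcgr1 at -109 to -101 (7.02% of all promoters), and the interferon response repeat in Fcgr4 at -73 to -64 (2.98% of all promoters). The AP-1 letters were in none of the 5 windows (6.75% of all promoters). Fcgr2b and Fcer1g held none of the 4 motifs in this window. Such matches describe letters only and are not evidence of binding.

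Values are FPKM, counts per kilobase of exon scaled to the tags of the library, and tests were run with limma on log2(FPKM + 0.5), so fold changes of weakly expressed genes are smaller than the ratio of their FPKM. A call needed both a p of 0.05 or less after Benjamini-Hochberg adjustment over all tested genes and a log2 fold change of 1 or more in size. All 5 members passed the filter of a mean of at least 0.5 FPKM in both tables. For Fcgr1, Fcgr2b and Fcgr4 in the single-IOP series, and for these and Fcgr3 in the recurring series, the mean of the young or recurring controls was under 0.5, so passing depended on the other libraries. Depth ranged from 39766232 to 59455058 tags per library, with 44.2% to 71.5% of tags in exons, and a level of 3 reads, taken as the limit of measurement, was 0.0195 to 0.116 FPKM for the members. This limit and all intervals from reads cover counting error only. The ratio of the median FPKM of short to that of long transcripts was 1.20 to 1.36 in the 4 libraries at 18mo. At 3mo it was 1.89 and 4.70 for the controls, and 2.99 and 3.26 for the treated eyes, so it separated the ages without overlap and was highest in 3mo control replicate 2. Age and this length bias cannot be told apart in the comparisons between ages. As the retinal label says, all 10 rod markers were measured, with a summed level of 5629.5 FPKM in the lowest library and 27689.7 in the highest, and so were the ganglion cell and Muller glia markers.

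**Figure D1:**
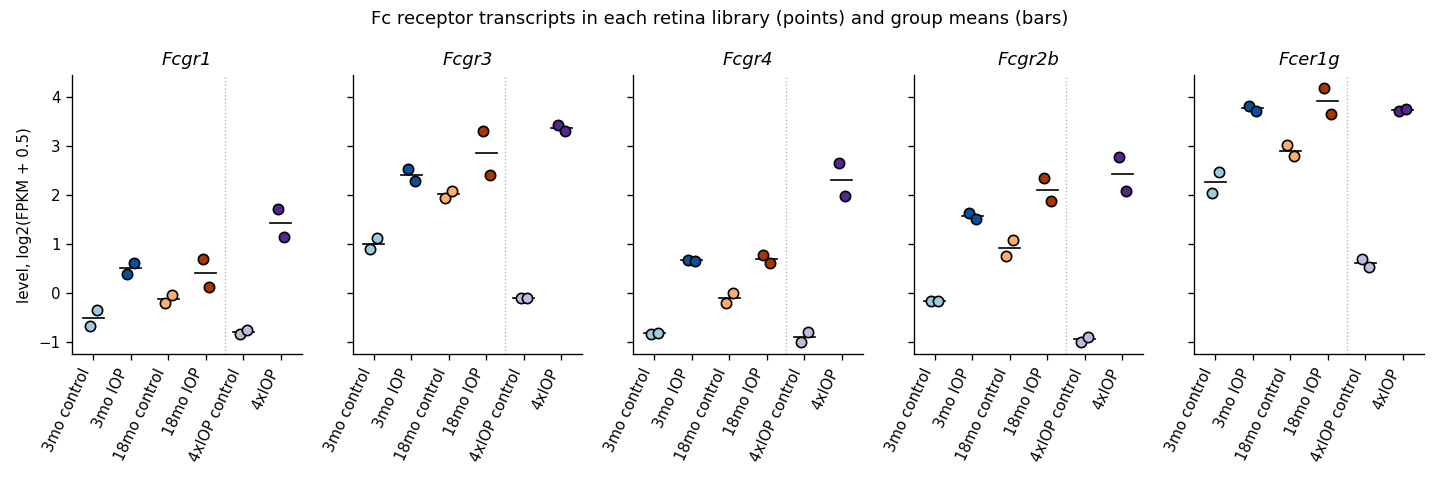
Levels of the 5 Fc receptor genes, as log2(FPKM + 0.5) on the vertical axis, in each of the 12 libraries (points) of the 6 groups (horizontal axis), with the mean of each group as a black bar; the dotted line separates the 2 tables, which were normalized separately. In every panel the 3mo control points are the lowest of the single-IOP series and the 4xIOP points lie above their controls.

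In 3-month-old retina a single elevation was followed by higher levels of all 5 genes, with no overlap between groups (28.6% of the 13731 tested genes were higher without overlap). Of the 5, 3 were called, Fcgr2b, Fcgr4 and Fcer1g, against 0.575% of all tested genes (0.568% higher). Fcgr2b and Fcgr4 had a control mean under 0.5 FPKM, so these 2 calls follow in part from the filter. The median log2 fold change of the 5 was 1.50, and that of all tested genes 0.13.

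Among the activating receptors, Fcgr3 had the highest level. It was at 1.37 and 1.66 FPKM in the 3mo control libraries and at 5.30 and 4.35 FPKM in 3mo IOP. Both treated libraries lay above both controls, but the difference was not called (log2 fold change 1.40, standard error 0.287, limma adjusted p = 0.0971). Fcgr4, whose product binds IgG2a and IgG2b, was at 0.058 and 0.067 FPKM in the controls, 3 and 4 reads, and at 1.10 and 1.08 FPKM, 74 and 56 reads, in 3mo IOP. It thus went from the limit of measurement to a level just above that of Fcgr1. Fcgr4 rose by 1.50 on the log2 scale (standard error 0.214, limma adjusted p = 0.0325), and the ratio of summed reads per tag was 17.3 (95% counting interval 8.15 to 43.8). For Fcgr1 the controls had 0.121 and 0.284 FPKM and the treated libraries 0.813 and 1.02 FPKM, which was not called (log2 fold change 1.02, standard error 0.272, limma adjusted p = 0.203).

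The inhibitory Fcgr2b had 0.397 and 0.390 FPKM in the young controls, against 2.60 and 2.36 FPKM after IOP. Its replicates were close together in both groups. It rose by 1.73 on the log2 scale (standard error 0.229, limma adjusted p = 0.0319), and stood 25th by p among all tested genes. The order of Fcgr2b and Fcgr4 depended on the added 0.5, since with 0.1 added Fcgr4 rose by 2.87 and Fcgr2b by 2.38. The signalling chain Fcer1g was the most abundant member per length, with 3.63 and 5.08 FPKM in the controls and 13.7 and 12.6 FPKM after IOP. It rose by 1.51 (standard error 0.235, limma adjusted p = 0.0372). These 3 calls were lost with median-of-ratios or quantile scaling, with the transcript length trend removed, with voom on recovered reads and with a block for the replicate number, with limma adjusted p of 0.0511 to 0.167 while the fold changes stayed at 1.20 or above on the log2 scale. They were also lost without 3mo control replicate 1, without either 3mo IOP library and without either 18mo control library, which share the estimate of spread, and held without 3mo control replicate 2. With no filter on low values Fcgr2b and Fcer1g were lost, with a pseudocount of 1 Fcgr4 was (log2 fold change 0.98), and with only the 2 groups compared Fcer1g was (limma adjusted p = 0.0595).

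**Figure D2:**
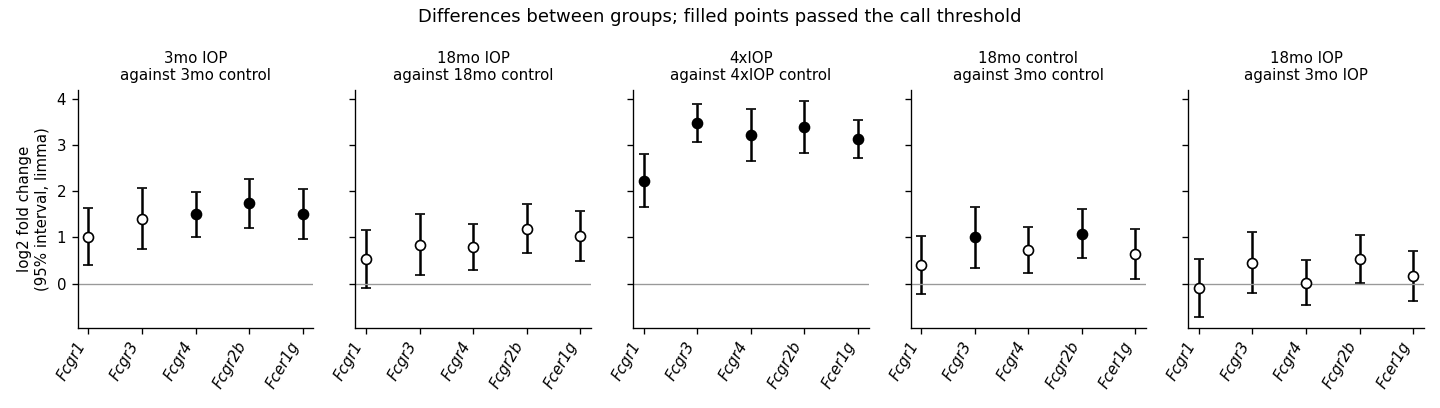
Log2 fold change of each member (vertical axis, with its 95% interval from limma) in the 5 comparisons (panels), filled where called. In 4xIOP the intervals of Fcgr2b, Fcgr3, Fcgr4 and Fcer1g lie wholly above 2, and in the panel of 18mo IOP against 3mo IOP 4 of the 5 intervals include 0.

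In 18-month-old retina the same elevation left all 5 members higher than in 18mo control without overlap (36.5% of tested genes), and none was called (0.124% of tested genes were, or 17 genes, and 0.117% were called higher). The median log2 fold change of the 5 was 0.84, against 0.09 for all tested genes, and was 0.72 without 18mo IOP replicate 1 and 1.29 without 18mo IOP replicate 2. At an unadjusted p under 0.05, 4 of the 5 were higher, all but Fcgr1, as were 8.71% of tested genes, and voom on recovered reads called none of the 5.

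Fcgr3 had 3.35 and 3.75 FPKM in 18mo control and 9.40 and 4.83 FPKM in 18mo IOP, where replicate 1 was higher than replicate 2. Its log2 fold change was 0.84 (95% interval 0.19 to 1.50, limma adjusted p = 0.324). Fcgr4 had 0.367 and 0.498 FPKM in the controls and 1.20 and 1.03 FPKM after IOP (log2 fold change 0.79, interval 0.30 to 1.29, limma adjusted p = 0.203). Fcgr1, the receptor of high affinity, was also not called. Its levels were 0.371 and 0.472 FPKM in 18mo control and 1.12 and 0.586 FPKM in 18mo IOP, a difference of 0.53 on the log2 scale (interval -0.10 to 1.15, limma adjusted p = 0.677). Fcgr2b had 1.18 and 1.62 FPKM in the controls and 4.56 and 3.16 FPKM after IOP (log2 fold change 1.19, interval 0.66 to 1.72, limma adjusted p = 0.115). Fcer1g had 7.64 and 6.43 FPKM in the controls and 17.9 and 12.2 FPKM after IOP (log2 fold change 1.03, interval 0.49 to 1.57, limma adjusted p = 0.150).

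An interaction term of IOP and age asked if the members responded to the same degree in young and old retina. All 5 estimates were negative, a smaller difference at 18mo, and ranged from -0.70 for Fcgr4 to -0.48 for Fcer1g. Their size depended on the setting and on 1 library, with a median of -0.55 that became -0.22 without 18mo IOP replicate 2, -0.98 with a pseudocount of 0.1 and -1.19 with voom, and for Fcgr4 the estimate ran from -0.41 with a pseudocount of 1 to -2.58 with voom. None was called and no gene of the 13731 was (0% of tested genes, limma adjusted p = 0.9999 for all 5, with 218 genes at an unadjusted p under 0.05), and voom called none of the 5. For Fcgr4 the 95% interval of -1.40 to -0.01 did not include 0 (limma, unadjusted p = 0.0477). The intervals of the other 4 were wide, from -1.49 at their lowest to 0.39 at their highest, so a response smaller by 1 at 18mo was not excluded. A response larger by 1 at 18mo lay outside these intervals in this fit.

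Age in untreated eyes was compared next. All 5 members were higher in 18mo than in 3mo control without overlap, as were 45.7% of tested genes. Fcgr2b and Fcgr3 were called higher, in a comparison in which 23.2% of all tested genes were called (11.6% higher), so the 2 calls are read against a high background. Fcgr2b had a 3mo control mean under 0.5 FPKM, so its call follows in part from the filter. This comparison and the one of 3mo IOP share their 3mo control libraries.

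From the levels given above, Fcgr2b had a mean of 0.394 ± 0.00495 FPKM in 3mo control and 1.40 ± 0.315 in 18mo control (SD, n = 2 each), a rise of 1.08 on the log2 scale (standard error 0.229, limma adjusted p = 0.0098). Fcgr3 rose by 1.01 (standard error 0.287, limma adjusted p = 0.0235), from 1.52 ± 0.206 to 3.55 ± 0.280 FPKM (SD, n = 2 each). Fcgr4 passed the p threshold but not that of the fold change (log2 fold change 0.73, limma adjusted p = 0.0264), although its reads per tag were 6.90 times those at 3mo (counting interval 3.11 to 18.04). Its 7 reads in all of 3mo control make the fitted value depend on the added 0.5. Fcer1g (0.65, limma adjusted p = 0.0524) and Fcgr1 (0.40, limma adjusted p = 0.253) were not called. Fcgr2b alone was called without 3mo control replicate 1, 3mo control replicate 2 or 18mo control replicate 1. No member was called with median-of-ratios or quantile scaling, with a pseudocount of 1 or without 18mo control replicate 2, while 4 were with the transcript length trend removed, which moved the median of the 5 from 0.73 to 1.45. Of all called genes, 1595 were higher and 1590 lower, against 1056 and 1959 with median-of-ratios scaling.

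Between the ages after IOP, no member was called (21.8% of tested genes were, 10.2% higher), and 1 of 5, Fcgr2b, was higher at 18mo without overlap (43.2% of tested genes). The log2 fold changes were 0.53 for Fcgr2b (95% interval 0.01 to 1.06), 0.45 for Fcgr3 (-0.21 to 1.11), 0.16 for Fcer1g (-0.38 to 0.70), 0.02 for Fcgr4 (-0.47 to 0.51) and -0.09 for Fcgr1 (-0.72 to 0.53). The intervals of Fcgr2b and Fcgr3 reached above 1, so a 2-fold difference of these genes was not excluded. With the transcript length trend removed, Fcgr2b and Fcer1g were called higher at 18mo (by 1.00 and 1.18 on the log2 scale), and the median of the 5 moved from 0.16 to 0.97. Across the 4 single-IOP groups, each of the 5 genes was lowest in 3mo control and next lowest in 18mo control, and both IOP groups lay above both controls. The IOP groups themselves overlapped for Fcgr1, Fcgr3, Fcgr4 and Fcer1g.

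After 4 elevations all 5 members rose, by 2.23 to 3.47 on the log2 scale, and all were called, against 6.15% of 13718 tested genes (5.45% higher). Of the 5, 4 had a control mean under 0.5 FPKM, all but Fcer1g. These 4 calls follow in part from the filter and are given as a description. The median of the 5 was 3.22, and that of all tested genes 0.10. None overlapped with the controls, as for 27.7% of tested genes that were higher. All 5 remained called under every alternative that tested them and without any 1 library (Fcgr1 fell below a filter of 2 FPKM).

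Fcgr3 was at 0.434 and 0.425 FPKM in the 4xIOP control libraries and at 10.3 and 9.38 FPKM in 4xIOP. It rose by 3.47 (standard error 0.192, limma adjusted p = 1.98e-07), and its reads per tag were 23.03 times those of the controls (counting interval 17.2 to 31.5). Fcgr4 was listed at 0 and at 0.076 FPKM in the controls, 0 and 4 reads, and at 5.80 and 3.45 FPKM, 405 and 181 reads, in 4xIOP. The fitted rise of 3.22 (standard error 0.259, limma adjusted p = 3.68e-06) depends on the added 0.5, and the ratio of reads per tag was 122 (counting interval 47.5 to 450). Fcgr1 was at 0.058 and 0.092 FPKM in the controls and at 2.78 and 1.71 FPKM in 4xIOP. It rose by 2.23 (standard error 0.264, limma adjusted p = 9.08e-05), and its reads per tag were 30.7 times higher (counting interval 18.7 to 54.1).

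Fcgr2b had 0 and 2 reads in the control libraries, 0 and 0.034 FPKM, and 500 and 220 reads, 6.38 and 3.73 FPKM, in 4xIOP. The inhibitory receptor was therefore at or under the limit of measurement in both controls. It rose by 3.38 in the fit (standard error 0.258, limma adjusted p = 2.4e-06), and the ratio of reads per tag was 300.3 with a wide counting interval of 82.8 to 2484. Fcer1g was at 1.12 and 0.943 FPKM in the controls and at 12.6 and 13.2 FPKM in 4xIOP, a rise of 3.13 (standard error 0.193, limma adjusted p = 4.28e-07). Replicate 1 of 4xIOP had the higher level of all 4 receptors but not of the gamma chain.

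The receptors did not keep the same proportions to each other. As shares of the summed FPKM of the 4 receptors, Fcgr3 made up 70.4% and 69.2% in the young controls and 54.04% and 49.4% after 1 elevation. In old retina it made up 63.6% and 59.1%, then 57.7% and 50.3% with IOP, and in 4xIOP 40.7% and 51.4%. It was the largest share in every library. Fcgr4 made up 2.98% and 2.79% in the young controls and 11.2% and 12.3% after 1 elevation. In old retina its share was 6.97% and 7.85%, then 7.37% and 10.7% with IOP, and in 4xIOP 23.0% and 18.9%. The share of Fcgr4 was thus higher in 3mo IOP and in 18mo control than in 3mo control without overlap, and overlapped between 18mo IOP and 18mo control. Its share in 3mo control rests on 7 reads. Shares of Fcgr1 stayed between 6.10% and 11.8% in the single-IOP series.

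The inhibitory Fcgr2b made up 20.4% and 16.2% of the pool in 3mo control, and 26.5% and 26.7% after IOP. In the older retinas its share was 22.3% and 25.6% in the controls, and 28.02% and 32.9% after IOP. The summed FPKM of the 3 activating receptors was 3.91 and 5.17 times that of Fcgr2b in the 3mo control libraries and 2.77 and 2.74 times in the treated ones. At 18 months it was 3.47 and 2.91 times in the controls and 2.57 and 2.04 times after IOP. The ratio was thus lower after IOP at both ages, without overlap. In 4xIOP it was 2.96 and 3.90 times, and the controls had too few Fcgr2b reads for a ratio. Each of these separations gives a 2-sided exact permutation p of 0.333, the smallest that 2 against 2 libraries allow.

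Fcer1g, needed by the 3 activating receptors, was at 1.86 and 2.11 times the summed FPKM of the 4 receptors in 3mo control. After IOP it was at 1.40 and 1.43 times. It was at 1.45 and 1.01 times in 18mo control and 1.10 and 1.27 times in 18mo IOP, where the groups overlapped. In the recurring series the ratio was 2.28 and 1.50 in the controls, on 29 and 40 reads of the 4 receptors, and 0.4999 and 0.720 in 4xIOP. Reads per tag of the gamma chain were 12.5 times those of the controls (counting interval 9.49 to 16.7), against 23.03 to 300.3 times for the 4 receptors. Its transcript is the shortest of the 5, and the ratio of short to long transcripts differed between single-IOP libraries as given above. In the recurring series that ratio was 1.76 and 1.63 in the controls and 1.45 and 2.20 in 4xIOP. The part of this length bias in the Fcer1g ratios was not tested.

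**Figure D3:**
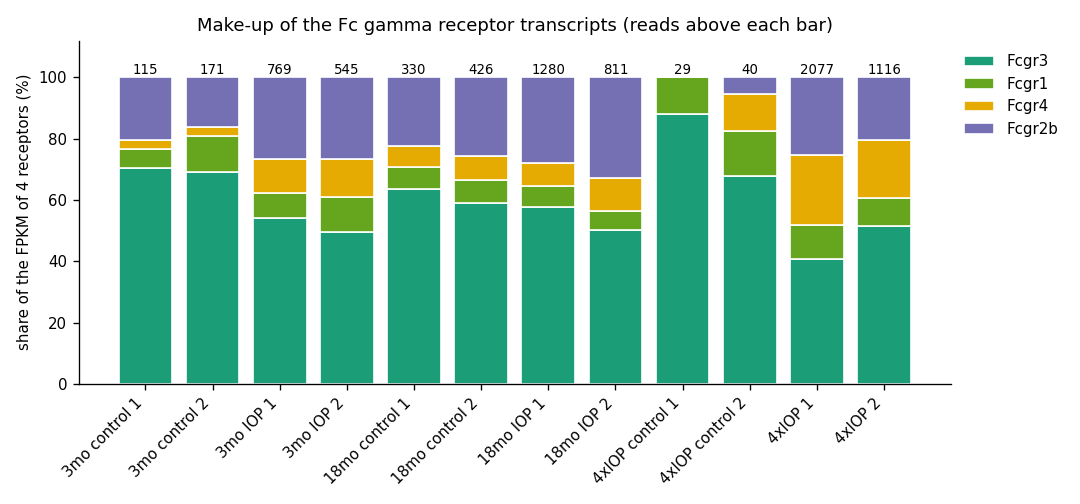
Share of each receptor (colours) in the summed FPKM of the 4 Fc gamma receptors (vertical axis, in percent) in each library (horizontal axis), with the number of their reads above each bar. Fcgr3 takes 70.4% and 69.2% in 3mo control and 40.7% and 51.4% in 4xIOP, where the yellow share of Fcgr4 is largest; the 4xIOP control bars rest on 29 and 40 reads.

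Over the 8 single-IOP libraries the 5 genes followed each other closely, with Pearson r of log2(FPKM + 0.5) between 0.902 (Fcgr1 and Fcgr2b) and 0.976 (Fcgr2b and Fcgr3). These values are descriptive, since the libraries fall into groups that share treatment and depth. For each member, r with each marker gene was also taken. The median of these r over the microglia markers was 0.534 for Fcgr4 to 0.766 for Fcgr3. Over the monocyte and neutrophil markers it was 0.396 to 0.556. In the 4 recurring libraries these medians were 0.959 to 0.987 and 0.980 to 0.993. Among 13059 genes tested in both tables, the genes most like Fcgr3 were Tmem173, which encodes the STING adaptor (r = 0.990), and C1qc and C1qb (0.984 and 0.980), chains of complement C1q. For Fcgr2b they were Tmem173 (0.980), Ppm1m (0.977) and Fcgr3 (0.976). Fcer1g was followed by Smim1 (0.990), Clec7a (0.983), the beta-glucan receptor Dectin-1, and Il13ra1 (0.970). For Fcgr4 they included Bcl2a1d (0.977) and Lrwd1 (0.977), and for Fcgr1 Gatm (0.957), Pik3ip1 (0.953) and Bcl2a1d (0.953). Over the 4 recurring libraries, which form only 2 groups, r was 0.859 to 0.999 for 13 of the 15 pairs of a member and its 3 most alike genes, with 0.626 for Fcer1g and Smim1 and 0.310 for Fcgr4 and Lrwd1.

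The neighbours of the members on the chromosome were counted next. Of 31 other genes whose start lay within 100 kb of that of a member, 18 were tested in the single-IOP series and 23 in the recurring one, and none was called in 3mo IOP, 18mo IOP or 4xIOP, where 0.575%, 0.124% and 6.15% of all genes were. Their log2 fold changes ran from -0.11 to 1.06, from -0.40 to 0.71 and from -0.62 to 0.80. In all 3 comparisons the highest was that of Cfap126, a cilium gene between Fcgr3 and Fcer1g (not called). Between control ages 1 neighbour was called higher, Ppox (1.04), and 3 lower, among them Bola1 (-1.93) and Apoa2 (-1.42), 4 of 18 where 23.2% of all tested genes were called.

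**Figure D4:**
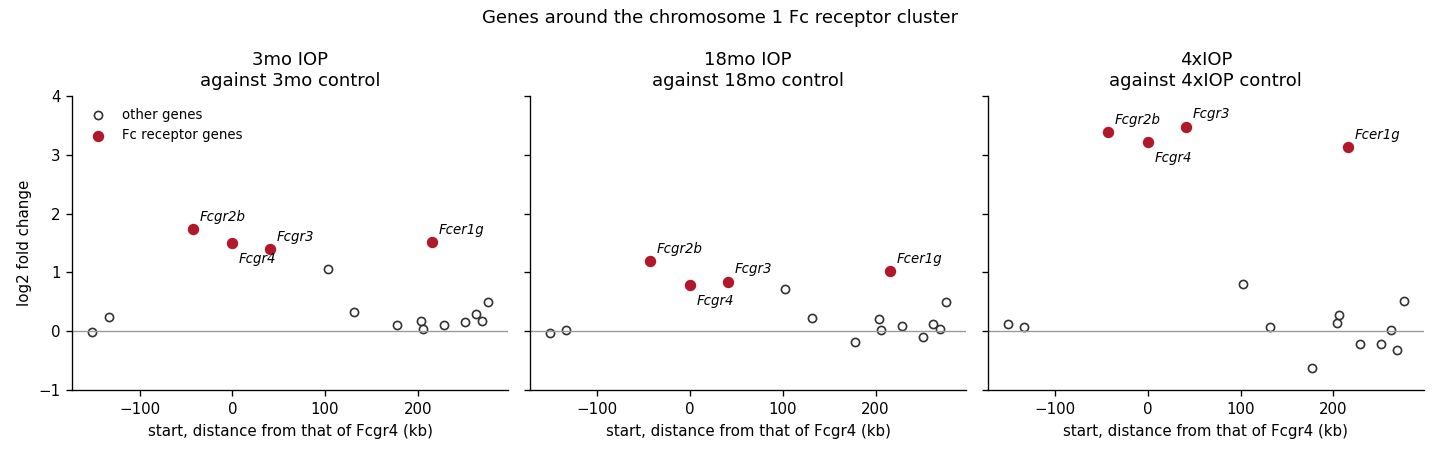
Log2 fold change (vertical axis) of the tested genes around the chromosome 1 cluster against the distance of their start from that of Fcgr4 in kb (horizontal axis), for the 3 comparisons with IOP; red points are the 4 Fc receptor genes there, open points the 12 other tested genes. The red points lie above the open ones in each panel, with the nearest open point at 1.06, 0.71 and 0.80.

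Receptors of the wider Fc family and genes that signal with the members were taken from lists. The counts called are to be set beside the shares of all tested genes given above, which were 5.45% higher in 4xIOP, 0.568% in 3mo IOP, 0.117% in 18mo IOP and 11.6% between control ages. A gene with a control mean under 0.5 FPKM was tested only because other libraries held more. Counts and medians that include such genes, in 4xIOP and in the other comparisons, were in part fixed by the filter and are given as a description. Of 14 other Fc receptor genes 4 were tested. In 4xIOP 3 of these were called higher, Fcrls, an Fc receptor-like gene of microglia (log2 fold change 3.12, limma adjusted p = 4.33e-05), Trim21, the cytosolic antibody receptor (2.17, limma adjusted p = 3.44e-05), and Fcamr, a receptor for IgA and IgM (1.65, limma adjusted p = 0.000182). The transporter of IgG, Fcgrt, had a log2 fold change of 0.91 there. None of the 4 was called in 3mo IOP, 18mo IOP or between ages, and their median log2 fold changes were 0.96 in 3mo IOP and 0.99 in 18mo IOP.

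Of 13 myeloid receptors that signal through the gamma chain, its relative DAP12 or a like motif of their own, 3 were tested in the single-IOP series and 4 in the recurring one. All 4 had a control mean under 0.5 FPKM in the recurring series, so that they were called higher in 4xIOP follows in part from the filter. Clec7a was at 0.0345 ± 0.0177 FPKM in the controls and 3.44 ± 0.975 in 4xIOP (SD, n = 2 each; log2 fold change 2.86, limma adjusted p = 7.17e-06). Trem2, a lipid receptor of microglia, was at 2.65 (limma adjusted p = 2.87e-06), and Clec4d, a C-type lectin, at 2.26 (limma adjusted p = 8.14e-05). In 3mo IOP none was called, and Clec7a was at 1.87 on that scale (limma adjusted p = 0.0650). In 18mo control Trem2 alone was called higher than in 3mo control (1.29, limma adjusted p = 0.0341).

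Of 22 tested genes of ITAM signalling, 21 had a log2 fold change above 0 in 4xIOP (median 1.70, lowest -0.24), and none was called lower. Called higher were 16, 11 of them with a control mean under 0.5 FPKM. They included Tyrobp, which encodes the ITAM-bearing adaptor DAP12, at 2.06 ± 0.365 FPKM in the controls and 34.5 ± 5.11 in 4xIOP (SD, n = 2 each; log2 fold change 3.78, limma adjusted p = 3.21e-07), and Arpc1b, a subunit of the actin-nucleating Arp2/3 complex (3.26, limma adjusted p = 3.53e-07). Of 13 tested in the single-IOP series none was called in 3mo IOP (median 0.45) or 18mo IOP (median 0.46), where the smallest p-values were those of Arpc1b and of Lyn (3mo) or Prkcd (18mo). With age, Prkcd (1.25, limma adjusted p = 0.00543) and Src (1.05, limma adjusted p = 0.0170) were called higher in the controls.

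The counterpart of the ITAM is the ITIM, which FcγRIIB carries and which recruits phosphatases. Of 14 tested genes of inhibitory signalling, 13 had a log2 fold change above 0 in 4xIOP, with a median of 0.64 over the 14. Called higher were 7, and these 7 all had a control mean under 0.5 FPKM. Among them were Ptpn6, the phosphatase SHP-1 (2.61, limma adjusted p = 9.79e-06), Lilrb4a, an ITIM receptor (2.69, limma adjusted p = 2.27e-05), and Laptm5, a lysosomal regulator of receptor turnover (2.54, limma adjusted p = 1.83e-05). Lilrb4a was the 1 gene of these lists called after a single elevation at both ages. Its level went from 0.186 ± 0.103 FPKM in young controls to 2.07 ± 0.485 after IOP (SD, n = 2 each; log2 fold change 1.90, limma adjusted p = 0.0315), and in old retina from 0.835 ± 0.207 to 4.78 ± 0.683 (SD, n = 2 each; 1.98, limma adjusted p = 0.0443). Both calls were lost with no filter, median-of-ratios or quantile scaling, the length trend removed, the replicate block or voom, and the call in old retina also with a pseudocount of 0.1 and with only the 2 groups compared. The limma adjusted p was then 0.0511 to 0.0821 at 3mo and 0.0590 to 0.135 at 18mo, with fold changes of 1.62 or above on the log2 scale. Of the libraries left out in turn, 5 of 8 ended the call at 3mo and 7 of 8 that at 18mo. With age 3 of 12 were called higher, Laptm5 (2.94), Inppl1, the phosphatase SHIP2 (1.25), and Siglece (1.24). Laptm5 and Siglece had a 3mo control mean under 0.5 FPKM.

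Among 16 tested genes of phagocytosis and the phagocyte oxidase, 15 had a log2 fold change above 0 in 4xIOP (median 2.17). Called higher were 13, 9 of the 13 with a control mean under 0.5 FPKM. Among them were the integrin chains Itgam (3.13, limma adjusted p = 6.26e-07) and Itgb2 (3.07, limma adjusted p = 1.58e-06) of complement receptor 3, and Cybb, the catalytic oxidase subunit (2.75, limma adjusted p = 2.35e-05). In 3mo IOP 1 of 11 was called, Axl, a receptor tyrosine kinase for phosphatidylserine on dying cells (1.36, limma adjusted p = 0.0372). This call was lost with no filter, median-of-ratios or quantile scaling, the replicate block, voom and only the 2 groups compared. It was also lost without 3mo control replicate 1, either 3mo IOP library or either 18mo control library. With 1 library left out the log2 fold change of Axl was 1.19 to 1.53. None of the 11 was called in 18mo IOP (median 0.89). Between control ages, where 11.6% of all tested genes were called higher, 9 of 11 were called higher and 1 lower. Of these 9, 4 had a 3mo control mean under 0.5 FPKM, Itgb2 among them, so these 4 calls follow in part from the filter. The largest rises were those of Cd68 (1.79), Axl (1.62) and Itgb2 (1.34). Of 12 genes of IgG itself and of B cells 6 were in the tables and 1, Jchain, was tested, with log2 fold changes of 0.31 in 3mo IOP, 0.05 in 18mo IOP and 0.76 in 4xIOP, not called. Transcripts of the IgG heavy chains were not analysed here.

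**Figure D5:**
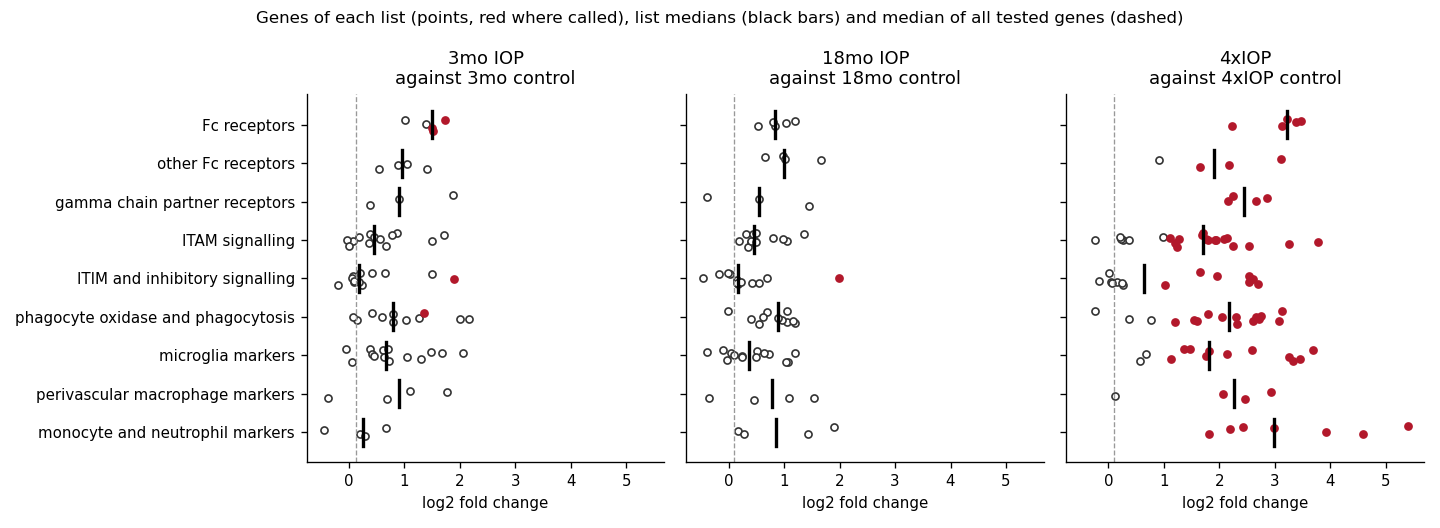
Log2 fold change (horizontal axis) of each tested gene of 9 lists (rows; red where called), with the list median (black bar) and the median of all tested genes (dashed), for the 3 comparisons with IOP. The medians of the Fc receptor genes are 1.50, 0.84 and 3.22, and red points are few in the first 2 panels and many in the third.

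Markers of cells that carry these receptors moved as well. The summed FPKM of the 15 microglia markers was 38.7 to 56.9 in 3mo control, 105 to 124 in 3mo IOP, 110 to 124 in 18mo control, 141 to 317 in 18mo IOP, 20.6 to 21.1 in 4xIOP control and 143 to 153 in 4xIOP. Of 14 tested, none was called in 3mo IOP (13 above 0, median 0.66) or in 18mo IOP (11 above 0, median 0.37), and 7 were called higher in 18mo control than in 3mo control (median 1.36), with Csf1r (2.21), Cx3cr1 (1.84) and C1qa (1.83) leading. In 4xIOP all 13 tested were above 0 (median 1.81). Called higher were 11 (4 of the 11 with a control mean under 0.5 FPKM), led by C1qb (3.68), Aif1 (3.46) and C1qa (3.33). P2ry12, the purinergic receptor that marks resident microglia, was at 0.56 (limma adjusted p = 0.274). Defining markers were low throughout, with Tmem119 at 0.341 to 3.52 FPKM.

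Markers of monocytes and neutrophils summed to 56.2 to 61.1 FPKM in 4xIOP and 0.178 to 0.619 in its controls, and the 7 tested all had a control mean under 0.5 FPKM, so that all were called higher follows in part from the filter. S100a8 was at 20.2 and 26.5 FPKM against 0 and 0.130 in the controls (log2 fold change 5.39, limma adjusted p = 1.52e-08). Ccr2, the chemokine receptor of monocytes, was at 3.03 and 4.18 FPKM against 0.013 and 0.014. Their sums were 2.45 to 11.1 FPKM in 3mo control, 3.55 to 7.88 in 3mo IOP, 1.10 to 1.77 in 18mo control and 4.76 to 5.42 in 18mo IOP, and none of 4 tested was called with IOP there. Of 4 tested markers of perivascular macrophages, all 4 were above 0 on the log2 fold change scale in 4xIOP. Called higher were 3, led by Pf4 (2.93), each with a control mean under 0.5 FPKM, and none was called after a single elevation. Sums were 9.89 to 15.96 FPKM in 4xIOP, 2.03 to 3.09 in its controls and 3.84 to 13.04 in the single-IOP libraries.

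Markers of T and NK cells summed to at most 1.83 FPKM in any library, and none was tested. Blood markers, mostly haemoglobin genes, summed to 37.3 to 56.8 FPKM in the recurring libraries, with none called. In young retina their sums were 19.5 and 262 FPKM in the controls against 29.3 and 313 after IOP, and in old retina 166 and 426 in the controls against 54.3 and 44.3 after IOP. Of the 5 tested none was called in 18mo IOP, where their median log2 fold change was -2.37, and 1, Alas2, an enzyme of haem synthesis in red cells, was called higher in 18mo than in 3mo control (1.71, limma adjusted p = 0.0437). Lens markers summed to 60.6 to 125 FPKM in 4xIOP and 1.57 to 5.55 in its controls, with 10 of 10 tested called higher (8 with a control mean under 0.5 FPKM), and those of retinal pigment epithelium to 4.22 to 8.07 and 29.7 to 38.4, with 4 of 5 called lower. Rod markers summed to 5630 to 8398 FPKM in 4xIOP and 11718 to 12147 in the controls, with none of 10 called. After a single elevation, where none of these was called, lens markers summed to 9.61 to 24.9 FPKM in 18mo IOP and 4.50 to 6.18 in its controls (median log2 fold change 0.95), and to 16.2 to 47.6 in 3mo IOP and 15.4 to 19.6 in its controls (0.41). Pigment epithelium markers summed to 237 to 579 FPKM in 3mo IOP and 202 to 212 in its controls, with Tyrp1 at 2.89 on the log2 scale (limma adjusted p = 0.115) and Tyr at 2.02 (limma adjusted p = 0.0650), both enzymes of pigment synthesis. Muller glia markers summed to 3087 to 3213 FPKM in 18mo IOP and 1729 to 2137 in 18mo control. Pigment epithelium markers were lower in 18mo than in 3mo control, 8 of 9 called. Of 10 retinal ganglion cell markers 6 were called lower with age, where none had a log2 fold change above 0, and none was called with IOP. Of 9 Muller glia markers 4 were called higher with age and 1, Vim, in 4xIOP. The part of these cell types and of tissue carried over at dissection in the Fc receptor values was not tested.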

How the data were processed

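The authors extracted RNA from fresh retina in TRIzol, made strand-specific TruSeq libraries of polyA RNA, aligned reads to mm10 with STAR 2.7.8a and counted tags in exons with HOMER, keeping 1 transcript per gene. The deposited values are FPKM, scaled by the authors to the tags of each library and to transcript length, in 1 table per series of 25124 genes. The tables were normalized separately, so tests were run within a table. Read length was not given in the sources used here. The authors used DESeq2 for their own tests. No column belonged to another series (0).

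Genes that averaged 0.5 FPKM or more in a table (13731 and 13718) were fitted as log2(FPKM + 0.5) with limma 3.58.1 (lmFit, eBayes with trend, R 4.3.3). One model with 4 groups held the 8 single-IOP libraries (residual df 4, prior df 4.12), and another the recurring series (2 and 10.6). Calls needed a p no larger than 0.05 after Benjamini-Hochberg adjustment and a log2 fold change of 1 or more in size, and for the interaction the adjusted p only. Whole reads were recovered from FPKM, transcript length and tags (100% of the values checked were whole). Intervals of read ratios are exact at 95%. The fit was tested on simulated data. Figures were drawn with matplotlib 3.10.9 in Python 3.11.15.

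The study describes the 2 libraries of each group as biological replicates, with RNA taken from the retina of single eyes. Which treated and control eyes came from one mouse is not given in the sources used here. Counts of replicates differed by more than sampling noise in each group (chi-square per degree of freedom 19.8 to 174). Named are the 5 members, up to 3 called genes of each list and comparison by size (2 with the smallest p where none was called), the 3 genes most alike each member by Pearson r, and called neighbours within 100 kb. Cfap126, P2ry12, Fcgrt, Tmem119 and Ccr2 were named after their values were seen. A few genes that the rule names are not reported here. The members and lists were chosen with earlier results of these data known. Alternatives were pseudocounts of 0.1 and 1, no filter, a stricter filter at 2 FPKM, scaling by median of ratios or by quantiles, removal of the transcript length trend (a spline, df 5), eBayes without trend, a block for the replicate number, voom on recovered reads, only the 2 groups compared, the adjusted p alone and leaving out each library.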

Additional observations from a re-analysis of the deposited data

How the results depend on the processing

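Members called in 3mo IOP were 3, and 2 with a pseudocount of 1 or only the 2 groups compared (and 2 of 3 tested at 2 FPKM), 1 with no filter and 0 with median-of-ratios scaling, quantile scaling, the length trend removed, voom or the replicate block. Leaving out 1 library, so that the other of its group is assumed to vary like the remaining groups, gave 0 to 4. In 18mo IOP the count was 0 under each alternative set beforehand and 2 with crossed replicate numbers as a block, chosen after seeing the data. Between control ages it was 2, and 3 with a pseudocount of 0.1 or the adjusted p alone, 0 with a pseudocount of 1, median-of-ratios or quantile scaling, 1 with no filter, 4 with the length trend removed, and 0 to 2 without 1 library. Between ages after IOP it was 0, and 2 with the length trend removed. In 4xIOP it was 5, or 4 of 4 tested at 2 FPKM. The interaction called 0 of 5 throughout. Between ages after IOP, where no member was called, Fcgr4 changed sign to -0.044 with median-of-ratios scaling and -0.048 with quantile scaling. Without 1 library, values there ranged from -0.38 to 0.20 for Fcgr1, from -0.056 to 0.099 for Fcgr4 and from -0.10 to 0.43 for Fcer1g, the lowest each without 18mo IOP replicate 1 and the highest without 18mo IOP replicate 2. The cause was not tested.

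Same-numbered libraries of the treated and control groups deviated in opposite directions (r = -0.28, -0.53 and -0.29), and the labels do not say that a number marks an animal, so numbers were not taken to pair libraries. The block changed the number of all genes called from 79 to 20 in 3mo IOP, from 17 to 0 in 18mo IOP and from 843 to 864 in 4xIOP. With crossed numbers the counts were 312, 306 and 894, with 4, 2 and 5 members. Over the other alternatives all genes called ranged from 3 to 90 in 3mo IOP, 0 to 22 in 18mo IOP, 475 to 1090 in 4xIOP, 2247 to 6297 between control ages and 2043 to 5846 between ages after IOP. Without 1 library these were 0 to 257, 0 to 138, 667 to 800, 1171 to 4720 and 677 to 3027. Median-of-ratios scaling moved the median log2 fold change of all genes from 0.13 to -0.04 in 3mo IOP and from 0.16 to 0.01 between control ages. With 2 libraries per group, standard errors had a median of 0.228 on the log2 scale, which limits what a missed call means.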
